A study of Mus musculus with 4 samples.

Results

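The 6 genes described here encode 5 G protein-coupled receptors and 1 receptor partner: the orexin receptor Hcrtr2, the receptor activity-modifying protein Ramp3, the kappa opioid receptor Oprk1, the muscarinic receptor Chrm2, the neurotensin receptor Ntsr2 and the neuromedin U receptor Nmur2. They were taken by symbol from the 15632 genes listed for nuclei taken from the deep cerebellar nuclei of mice, through which the cerebellum sends its output, and were picked for their levels across cell classes in these same data, so those levels are given as a description with no test. Single nuclei were sequenced from 4 libraries of C57BL/6J mice; by its title, the study asks about glutamatergic cells and the control of satiation. Each of the 2 Cre lines gave 2 libraries. Ucn3-Cre mice carry Cre from a urocortin 3 transgene; replicate 1 was a female aged 3 months with nuclei from an iodixanol gradient, and replicate 2 a male aged 3 months with nuclei from a sucrose cushion. vGluT2-Cre mice carry Cre from an Slc17a6 transgene; replicate 1 was a male aged 2 months and replicate 2 a female aged 2.5 months, both with a sucrose cushion. All mice also carried Ai32, which makes a channelrhodopsin fused to EYFP after Cre recombination. The labels record no sorting of nuclei, and age, sex and extraction were not balanced between them.

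Orexins are hypothalamic peptides of wakefulness and feeding, and Hcrtr2 couples mainly to Gq and raises excitability. Ramp3 has no ligand of its own: it sits beside the calcitonin receptor (Calcr) or the calcitonin receptor-like receptor (Calcrl) and turns them into receptors for amylin or adrenomedullin. Oprk1, the receptor for dynorphin, and Chrm2, one of the acetylcholine receptors, both couple to Gi/o proteins, which inhibit adenylyl cyclase and open G protein-gated potassium channels. Ntsr2 binds neurotensin with low affinity and is known from astrocytes as well as neurons. Nmur2 is the central receptor for neuromedin U and neuromedin S, peptides that reduce food intake.

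Of the genes, 4 had enough RefSeq sequence (GRCm38.p6) before their start to be shown, as the stretch upstream of both the RefSeq and the GENCODE start, because they contrast the genes of neurons (Ramp3, Chrm2) with those of astrocytes (Ntsr2, Nmur2). Capitals mark matches, on either strand, to the CCAAT box (CCAAT), the GC box (GGGCGG) and the TATA box (TATAAA).
Ramp3, chr11:6658283-6658520, plus strand: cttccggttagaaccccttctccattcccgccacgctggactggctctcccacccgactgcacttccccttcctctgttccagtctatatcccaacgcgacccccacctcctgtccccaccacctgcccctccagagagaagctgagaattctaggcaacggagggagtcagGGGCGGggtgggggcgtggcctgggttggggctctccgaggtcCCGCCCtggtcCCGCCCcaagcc
Chrm2, chr6:36387834-36388083, plus strand: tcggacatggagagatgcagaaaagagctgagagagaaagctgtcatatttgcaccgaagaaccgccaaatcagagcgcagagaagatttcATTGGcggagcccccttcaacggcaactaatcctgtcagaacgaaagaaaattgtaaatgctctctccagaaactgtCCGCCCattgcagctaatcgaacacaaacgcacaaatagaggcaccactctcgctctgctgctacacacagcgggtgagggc
Ntsr2, chr12:16653220-16653381, plus strand: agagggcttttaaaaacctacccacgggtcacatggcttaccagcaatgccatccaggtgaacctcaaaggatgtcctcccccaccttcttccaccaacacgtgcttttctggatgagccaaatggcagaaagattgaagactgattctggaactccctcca
Nmur2, chr11:56041011-56041237, minus strand: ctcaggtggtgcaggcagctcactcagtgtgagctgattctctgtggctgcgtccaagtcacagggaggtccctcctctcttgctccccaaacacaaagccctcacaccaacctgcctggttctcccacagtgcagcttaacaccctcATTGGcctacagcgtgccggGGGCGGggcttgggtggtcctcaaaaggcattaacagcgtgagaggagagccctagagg
Ramp3 held 3 GC boxes in these letters, Chrm2 and Nmur2 each 1 GC box and 1 CCAAT box, and the Ntsr2 stretch none of the motifs. Among 32851 mouse promoter windows of 300 bases, 35.7% hold a GC box, 37.4% a CCAAT box and 13.6% a TATA box. The stretches shown are shorter, at 162 to 250 bases. The 300-base windows of Ramp3 and Chrm2 had 15 and 16 CpG dinucleotides and those of Ntsr2 and Nmur2 had 5 and 6, against a median of 7 over all windows (quartiles 3 and 20). That of Hcrtr2, whose letters are not shown, lay between with 10. These letter matches are a description and not evidence of binding.

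After removal of 947 likely doublets, 20547 of 21494 nuclei were kept, with median counts of 1730 and 1999 per nucleus in the Ucn3-Cre libraries, against 2336 and 3206 in the vGluT2-Cre libraries. Of 21453 distinct barcodes, 41 occurred in more than 1 library. Clustering without the receptor and pathway genes gave 1340 inhibitory neurons (206, 397, 495 and 242 in Ucn3-Cre replicates 1 and 2 and vGluT2-Cre replicates 1 and 2), 547 glutamatergic neurons, 5027 astrocytes, 9218 oligodendrocytes, 694 oligodendrocyte precursors, 763 microglia, 745 endothelial cells, 179 mural cells, 79 fibroblasts and 1955 unnamed nuclei. The 5 inhibitory markers Gad1, Gad2, Slc32a1, Slc6a5 and Pax2 summed to 926 to 1168 CPM (counts of a gene per 1000000 counts of the group) per library in the inhibitory class, 91.7 to 236 CPM in the glutamatergic class and 23.8 to 37.1 CPM in astrocytes. The submitters' own table of vglut2 nuclei held 480 nuclei. In the tables, 4186 genes (26.8%) were listed at 0 in every nucleus of at least 1 library. This held for 0 of the 6 receptor genes.

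The inhibitory class fell into 3 clusters, and the receptors divided along them. Cluster 19 (433 nuclei), led by Gm14342 and Klhl1, had 211.1 ± 25.5 CPM of Slc6a5, the neuronal glycine transporter, and 125.0 ± 13.0 CPM of the transcription factor Pax2 (SD, n = 4 libraries, as for all levels here). Cluster 11 (664 nuclei), led by Cntn5 and Galntl6, had 1.49 ± 1.06 CPM of Slc6a5 and 0.184 ± 0.369 CPM of Pax2. Cluster 12 (243 nuclei) had the markers of molecular layer interneurons (Lypd6, Ptprk, Kit and Prkcd), which summed to 1025 to 1793 CPM there, against 639 to 780 CPM in cluster 11 and 537 to 648 CPM in cluster 19. The nucleo-olivary marker Sox14 reached 73.5 CPM in cluster 11 of vGluT2-Cre replicate 2 and was listed at 0 in all nuclei of the other 3 libraries, so cluster 11 was not given that name. The share of each cluster among inhibitory neurons was close between libraries, with 47.6 to 54.5% in cluster 11, 31.1 to 33.7% in cluster 19 and 13.2 to 21.2% in cluster 12. Hcrtr2 and the higher level of Chrm2 lay in cluster 19, and Ramp3, Oprk1 and a lower level of Chrm2 in cluster 11. Although none of the receptors was among the genes used to cluster, Chrm2 was 1 of the 10 leading genes of cluster 19.

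**Figure D1:**
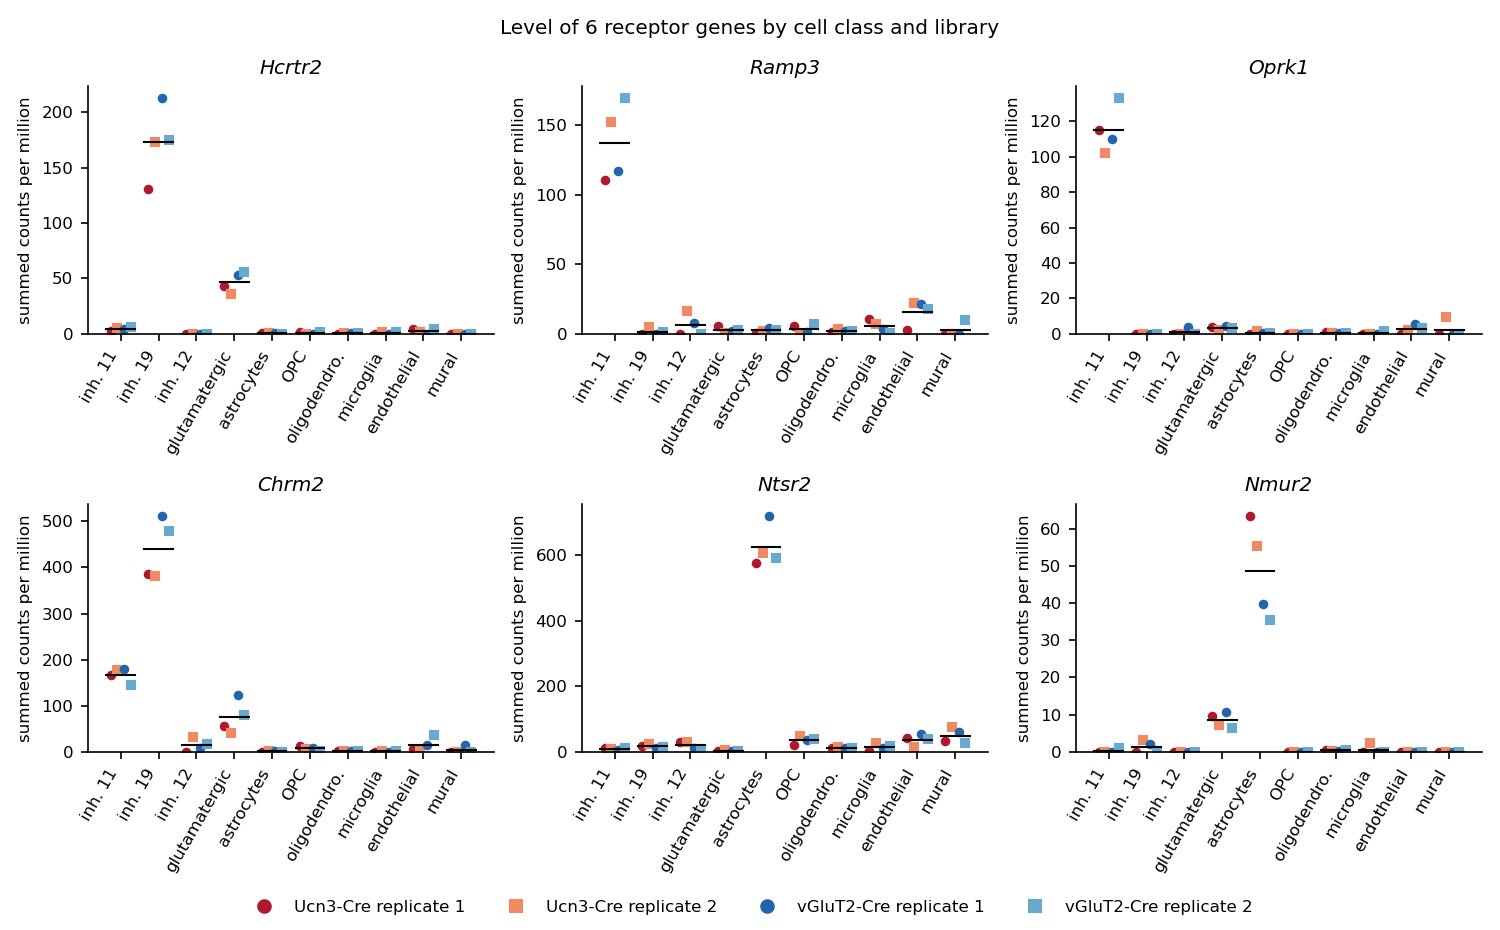
Each panel plots 1 gene as summed CPM (linear axis from 0) in inhibitory clusters 11, 19 and 12 (inh.), glutamatergic neurons and 6 other classes; points are the 4 libraries and bars their means. Ramp3 and Oprk1 stand out in cluster 11, Hcrtr2 and Chrm2 in cluster 19, and Ntsr2 and Nmur2 in astrocytes.

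The label of inhibitory neurons held for 4 of the 6 genes only. Of all counts of a gene, inhibitory neurons held 89.5% for Oprk1, 75.9% for Ramp3, 75.1% for Chrm2 and 60.3% for Hcrtr2, but 0.85% for Ntsr2 and 0.686% for Nmur2. Astrocytes held 93.5% of the Ntsr2 counts and 90.8% of the Nmur2 counts. Glutamatergic neurons were the second holder of Hcrtr2 (35.9%), Chrm2 (20.4%) and Nmur2 (7.18%). The inhibitory share of Hcrtr2 ranged from 51.0% in Ucn3-Cre replicate 1 to 65.3% in vGluT2-Cre replicate 1. These are counts over all nuclei, so they follow the number of nuclei and their depth as well as the level in each nucleus. Nor can fewer nuclei with a transcript be told apart from less transcript per nucleus in a summed level.

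**Figure D2:**
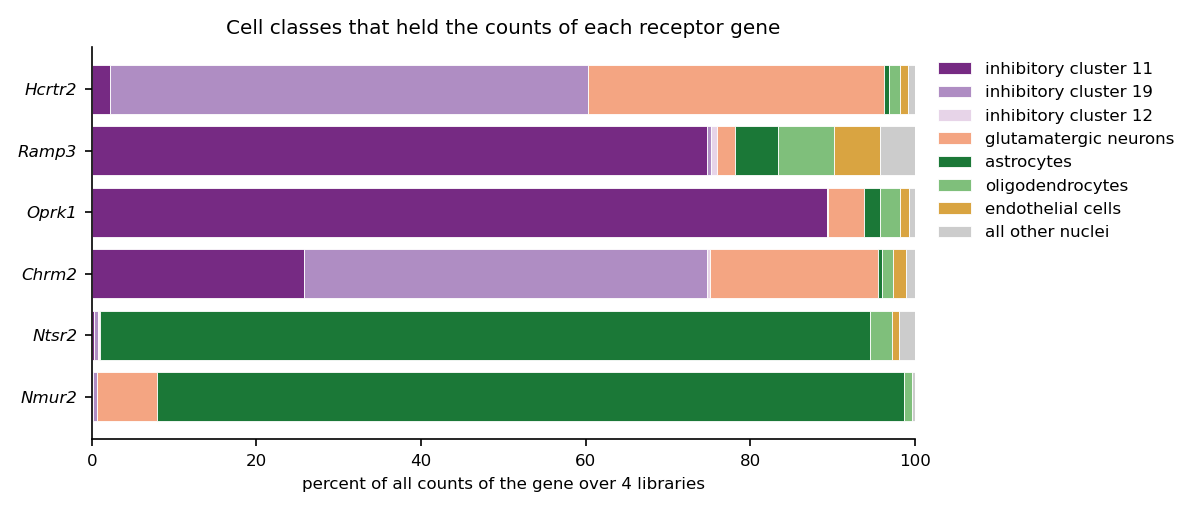
Stacked bars give, for each gene, the percent of its counts over all 4 libraries that lay in each inhibitory cluster, in glutamatergic neurons, in astrocytes, in oligodendrocytes, in endothelial cells and in all other nuclei. Cluster 11 held 89.3% of Oprk1 and 74.7% of Ramp3, cluster 19 held 58.1% of Hcrtr2 and 48.9% of Chrm2, and astrocytes nearly all of Ntsr2 and Nmur2.

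Hcrtr2 (ENSMUSG00000032360, a protein-coding gene of 97977 bases on the minus strand of chromosome 9, 76225880 to 76323856 in GRCm38) was the receptor gene of cluster 19. Its level there was 130.5 and 173.5 CPM in the Ucn3-Cre libraries and 213.2 and 175.5 CPM in the vGluT2-Cre libraries, 173.2 ± 33.8 CPM over all (SD, n = 4). Glutamatergic neurons had 47.0 ± 8.98 CPM, from 36.1 to 55.6 CPM per library, so that the 2 sets of libraries did not overlap and cluster 19 was 3.02 to 4.8 times higher within a library. Cluster 11 followed at 4.54 ± 1.63 CPM, below every glutamatergic value and overlapping endothelial cells at 2.70 ± 2.19 CPM. Astrocytes (0.400 CPM), oligodendrocytes (0.481 CPM), precursors (0.638 CPM) and microglia (0.859 CPM) overlapped one another. In cluster 12 no count was found in 243 nuclei, with an exact 95% upper limit of 1.51% for the share of nuclei with a count (3 nuclei would be 1.23%). The level was at least 36.0-fold lower than in cluster 19 (floor of 3 counts over the group). Such a limit covers counting error at this depth, a median of 2285 counts, and not nuclei whose transcript was missed.

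By nuclei, 228 of 433 in cluster 19 had an Hcrtr2 count (52.7%, 95% exact interval 47.8 to 57.4%), against 26.3% in glutamatergic neurons, which were deeper (median 9555 against 5486 counts), and 0.228% in oligodendrocytes, which served as background (median 2059 counts). Thinned to 2000 counts per nucleus, the shares were 23.5%, 8.78% and 0.0938%. Unthinned, the share in cluster 19 ran from 35.9% to 67.9% between libraries. The pooled interval covers counting error and not this spread. When the inhibitory class was divided further into sub-clusters 0 to 9, the level was highest in sub-cluster 6, led by Slc6a5, Sv2c and Kcnc2, with 217.6 ± 54.8 CPM and 71.9% of 121 nuclei. Sub-cluster 5, led by the neurotensin gene Nts, had 163.2 ± 15.0 CPM and 44.2% of 267 nuclei, with ranges that overlapped those of sub-cluster 6. Sub-cluster 8 had 109.3 ± 64.7 CPM in 70 nuclei, from 26.3 to 183.3 CPM, and the molecular layer interneuron genes Lypd6 and Prkcd among its leading genes. However, none of its nuclei with an Hcrtr2 count lay in cluster 12, where those markers were highest and no nucleus had a count.

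Among glutamatergic neurons Hcrtr2 was unevenly spread. Sub-cluster 0, led by Igf1, had 91.2 ± 24.4 CPM (86 nuclei), sub-cluster 7, led by Prox1 and Maf, 104.4 ± 66.3 CPM (33 nuclei), and sub-cluster 3, led by Crhr1 and Maf, 42.2 ± 22.3 CPM (89 nuclei). Sub-cluster 5, led by Sema3a, had 1.32 CPM, from 1 of 56 nuclei. The highest level, 256.4 ± 67.3 CPM, was that of sub-cluster 6, whose 46 nuclei also carried the inhibitory markers Pax2 and Gad2 and held 32.4% of the glutamatergic Hcrtr2 counts. In the submitters' vglut2 nuclei the level was 34.8 ± 6.36 CPM (30.2 to 44.0 CPM), with a count in 23.5% of nuclei.

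Chrm2 (ENSMUSG00000045613, 140331 bases on the plus strand of chromosome 6, 36388084 to 36528414) was highest in cluster 19, followed by cluster 11. Cluster 19 had 386.0 and 382.2 CPM in the Ucn3-Cre libraries and 512.3 and 478.1 CPM in the vGluT2-Cre libraries (439.6 ± 65.6 CPM). Cluster 11 had 166.8 and 177.6 CPM in the Ucn3-Cre libraries and 178.6 and 144.8 CPM in the vGluT2-Cre libraries (166.9 ± 15.7 CPM). Cluster 19 was thus 2.15 to 3.3 times higher than cluster 11 in each library, and both exceeded glutamatergic neurons at 74.6 ± 35.6 CPM without overlap. A count was found in 75.3% of cluster 19 nuclei and 47.7% of cluster 11 nuclei, and in 49.3% and 24.8% after thinning. Cluster 12 had 14.1 ± 14.0 CPM and overlapped endothelial cells (14.3 ± 15.5 CPM), and oligodendrocytes had 1.44 ± 0.810 CPM with a count in 0.445% of nuclei.

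Over the inhibitory sub-clusters, Chrm2 reached 504.8 ± 93.8 CPM and 90.1% of nuclei in sub-cluster 6 and 432.2 ± 64.4 CPM in sub-cluster 5, with overlapping ranges. Lower values included those of sub-clusters that also had Ramp3 and Oprk1, with 212.0 ± 24.5 CPM in sub-cluster 7 (led by Col11a1 and Chsy3), 187.4 ± 36.3 CPM in sub-cluster 0 (led by 4930555F03Rik and Cdh9) and 116.5 ± 17.4 CPM in sub-cluster 3 (led by Foxp2). Sub-cluster 8, with no Ramp3 or Oprk1 count in 70 nuclei, was also lower at 185.6 ± 81.25 CPM, as was sub-cluster 1 at 44.4 ± 24.1 CPM. Sub-cluster 3 had at most 140.9 CPM in any library and sub-clusters 0 and 7 at least 152.2 CPM. Sub-cluster 4, at a median of 2090 counts, had no count in 101 nuclei, with an exact 95% upper limit of 3.59% for the share of nuclei with a count (3 nuclei would be 2.97%).

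Glutamatergic Chrm2, with a count in 129 of 547 nuclei (23.6%), was uneven between sub-clusters. Sub-cluster 6, the one with inhibitory markers, had 668.7 ± 65.3 CPM, a count in 41 of 46 nuclei and 50.6% of all glutamatergic Chrm2 counts. Sub-clusters 1 (39 nuclei, with the vesicular inhibitory transporter Slc32a1 and Zfhx3 among its leading genes) and 0 held 20.4% and 17.3%. Sub-cluster 3 had a count in 1 of 89 nuclei and sub-cluster 2, led by Lmx1a, in 2 of 57. The submitters' vglut2 nuclei had 40.1 ± 21.7 CPM (19.7 to 66.7 CPM).

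**Figure D3:**
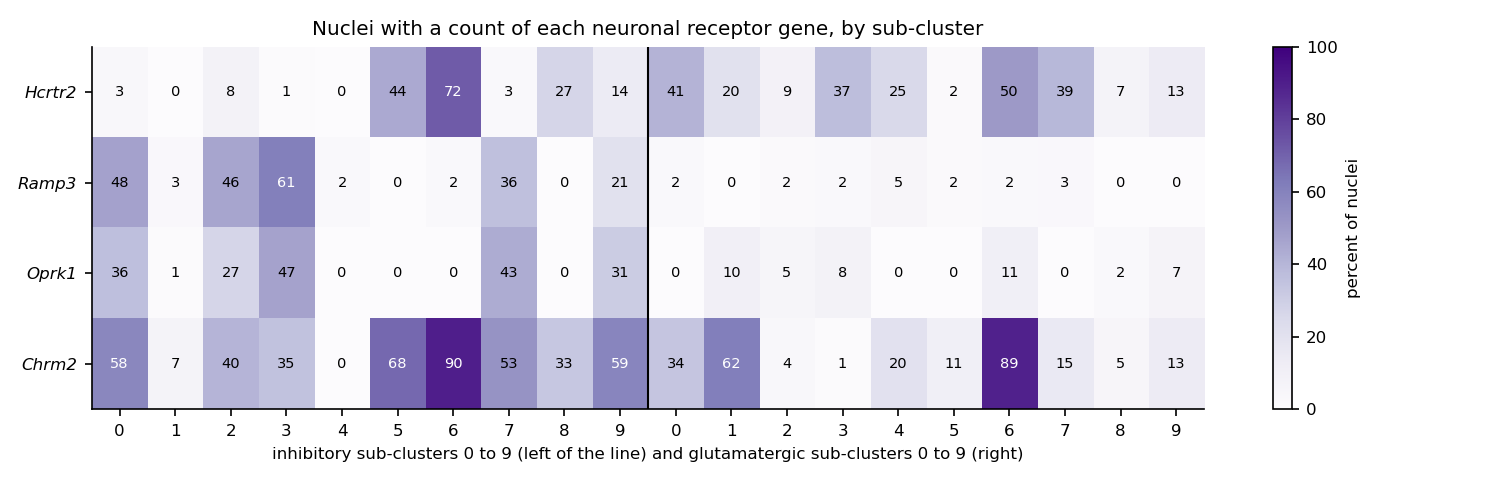
Colours and figures give the percent of nuclei with a count of each gene in inhibitory sub-clusters 0 to 9 and glutamatergic sub-clusters 0 to 9. Ramp3 and Oprk1 share inhibitory sub-clusters 0, 3 and 7 and are near 0 in sub-clusters 5 and 6, where Hcrtr2 and Chrm2 are highest. Sub-clusters 2 and 9, which also show Ramp3 and Oprk1, were led by the granule cell gene Gabra6 and the oligodendrocyte gene Aspa among others. The glutamatergic sub-cluster 6 has the pair Hcrtr2 and Chrm2.

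Ramp3 (ENSMUSG00000041046, 18955 bases on the plus strand of chromosome 11, 6658521 to 6677475) marked cluster 11. Its level was 110.6 and 152.3 CPM in the Ucn3-Cre libraries and 117.1 and 169.6 CPM in the vGluT2-Cre libraries (137.4 ± 28.2 CPM), with a count in 314 of 664 nuclei (47.3%, 95% exact interval 43.4 to 51.2%). Between libraries this share ran from 33.6% to 62.1%, a spread that the pooled interval does not cover. Cluster 19 had 1.56 ± 2.25 CPM from 4 of 433 nuclei, at the 0.77% of oligodendrocyte nuclei taken as background. The next class was endothelial cells, where adrenomedullin receptors are known, with 2.61 and 22.2 CPM in the Ucn3-Cre libraries and 21.3 and 17.7 CPM in the vGluT2-Cre libraries. That level, 15.9 ± 9.10 CPM in 5.1% of 745 nuclei, lay below every cluster 11 value but overlapped cluster 12, microglia and fibroblasts. Glutamatergic neurons had 2.91 ± 2.21 CPM, within the range of the glia. Among sub-clusters, sub-cluster 3 was highest with 197.5 ± 34.5 CPM and 61.3% of 212 nuclei, and its lowest library (151.8 CPM) was above every library of sub-cluster 7 (91.3 ± 20.8 CPM). Sub-cluster 0 lay between at 118.9 ± 51.3 CPM and overlapped both.

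Oprk1 (ENSMUSG00000025905, 17666 bases on the plus strand of chromosome 1, 5588466 to 5606131) had 89.3% of its counts in cluster 11. The level there was 115.1 and 101.9 CPM in the Ucn3-Cre libraries and 109.7 and 133.2 CPM in the vGluT2-Cre libraries (115.0 ± 13.3 CPM), with a count in 43.1% of nuclei (95% exact interval 39.3 to 46.9%). Between libraries this share ran from 33.6% to 58.3%, a spread that the pooled interval does not cover. In cluster 19 not 1 of 433 nuclei had a count, at a like median depth (5486 counts, against 5151 in cluster 11). The exact 95% upper limit for the share of nuclei with a count was 0.848% (3 nuclei would be 0.693%), and the level of cluster 11 was at least 97.5-fold higher (floor of 3 counts over the group). Glutamatergic neurons had 3.37 ± 0.833 CPM (2.35 to 4.35 CPM), 25.2 to 43.3 times below cluster 11 within a library, yet above every astrocyte (0.589 ± 0.767 CPM) and oligodendrocyte library (0.574 ± 0.303 CPM). The glutamatergic values overlapped those of endothelial cells (2.615 ± 2.263 CPM) and mural cells (2.416 ± 4.832 CPM). The 79 fibroblasts had 1 nucleus with a count. Sub-clusters 7 (128.4 ± 25.0 CPM), 3 (119.8 ± 22.9 CPM) and 0 (95.7 ± 23.9 CPM) overlapped, so that Oprk1, unlike Ramp3, did not separate sub-cluster 3 from sub-cluster 7.

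The receptor genes of cluster 11 and of cluster 19 were also seen in separate nuclei. Among 1340 inhibitory nuclei, Hcrtr2 and Chrm2 were detected together in 200 nuclei, against 121 expected within libraries if detection were independent, and 82.0% of Hcrtr2 nuclei had Chrm2. Ramp3 and Oprk1 were together in 142 nuclei, against 72.1 expected. Hcrtr2 met Ramp3 in 10 nuclei, against 61.0 expected, and Oprk1 in 8 nuclei, against 54.6 expected. The log2 odds ratio was 2.79 ± 0.66 for Hcrtr2 and Chrm2, 2.01 ± 0.79 for Ramp3 and Oprk1, -3.69 ± 1.65 for Hcrtr2 and Ramp3, and -2.95 ± 0.81 for Hcrtr2 and Oprk1 (mean ± SD, n = 4 libraries), with the same sign in all 4 libraries. With every nucleus thinned to 2000 counts the values were closer to 0 and kept their sign, at 1.32, 0.92, -1.68 and -1.44 in the same order. Chrm2 met the cluster 11 pair about as often as independence gives: 157 nuclei had Ramp3 and Chrm2, against 159 expected, and 132 had Oprk1 and Chrm2, against 142 expected.

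The pairs that departed from independence were closer to it within sub-clusters, by differing amounts. Within cluster 11, Ramp3 and Oprk1 were together in 142 nuclei, against 139 expected, and the log2 odds ratio was -0.03 ± 0.56, from -0.84 in Ucn3-Cre replicate 1 to 0.37 in Ucn3-Cre replicate 2. The odds ratio over libraries in all inhibitory neurons was 4.65, and 1.17 once sub-clusters were held apart as well. For Hcrtr2 and Ramp3 it was 0.0891, and 0.914 with sub-clusters held apart. For Hcrtr2 and Oprk1 it was 0.0897 and 0.692, and for Hcrtr2 and Chrm2 6.33 and 2.72, in the same order. Hcrtr2 and Chrm2 kept an excess within cluster 19, with 193 nuclei against 173 expected and a log2 odds ratio above 0 in all 4 libraries (1.75 ± 1.46). There the odds ratio was 2.77 over libraries, 2.23 with sub-clusters held apart and 1.67 when nuclei were also compared at like depth. Detection of any pair rises with depth, and the part of depth beyond this was not tested. Ramp3 and Ntsr2, a pair outside those above, met in 9 inhibitory nuclei, against 25.8 expected. Their odds ratio was 0.258 over libraries and 0.227 with sub-clusters held apart, with Ntsr2 close to background in this class.

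**Figure D4:**
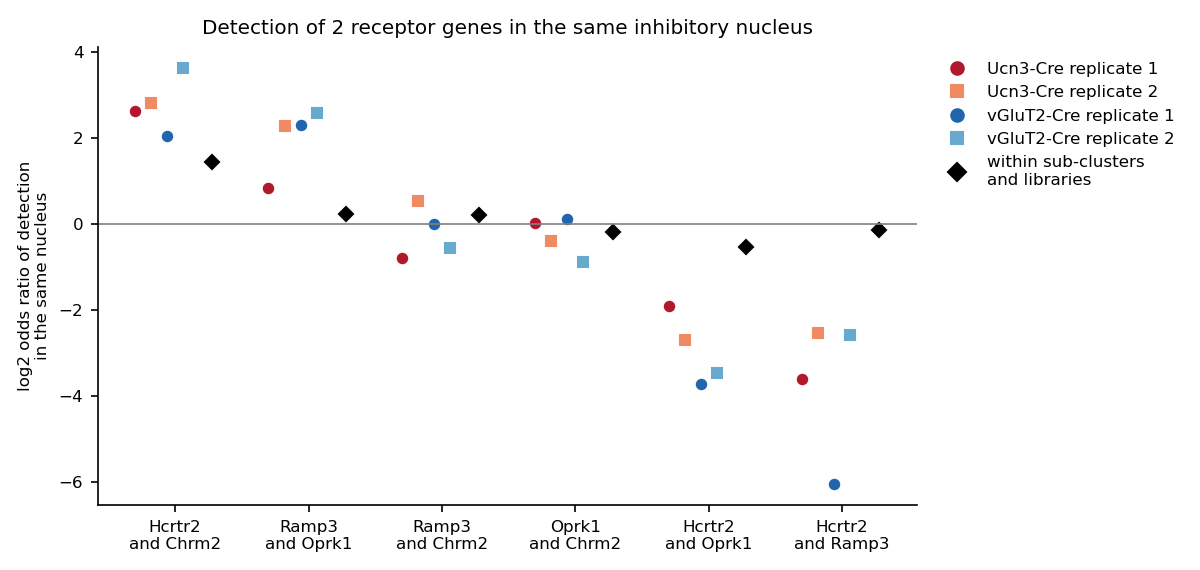
The log2 odds ratio that 2 genes were detected in the same inhibitory nucleus is plotted for 6 pairs, with 1 point per library, and as a black diamond after pooling within sub-clusters and libraries. Library values for Hcrtr2 and Chrm2 and for Ramp3 and Oprk1 lie above 0 and those for Hcrtr2 with Ramp3 or Oprk1 below 0; the diamonds lie closer to 0, at 1.44 for Hcrtr2 and Chrm2.

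Counted as combinations of these 4 genes, 190 of 433 cluster 19 nuclei (43.9%) had Hcrtr2 and Chrm2 alone, 132 had Chrm2 alone, 35 had Hcrtr2 alone and 72 (16.6%) had none. In cluster 11 no combination led: Chrm2 alone was seen in 93 nuclei, Ramp3 and Chrm2 in 87, Ramp3 alone in 82, Ramp3 and Oprk1 in 75, Oprk1 alone in 73, Oprk1 and Chrm2 in 67, all of Ramp3, Oprk1 and Chrm2 in 63, and none of the 4 in 108 (16.3%). In cluster 12, 231 of 243 nuclei (95.1%) had none, at a median of 2285 counts. A missing count at these depths does not show that a nucleus lacked the transcript.

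Ntsr2 (ENSMUSG00000020591, 6846 bases on the plus strand of chromosome 12, 16653382 to 16660227) was an astrocyte gene in these tables. Astrocytes had 577.0 and 607.0 CPM in the Ucn3-Cre libraries and 721.2 and 592.2 CPM in the vGluT2-Cre libraries (624.4 ± 65.7 CPM), with a count in 75.3% of 5027 nuclei. Mural cells (49.3 ± 23.4 CPM), endothelial cells (37.1 ± 16.9 CPM) and oligodendrocyte precursors (36.1 ± 10.7 CPM) overlapped one another far below. Inhibitory neurons had 12.5 ± 4.10 CPM (7.0 to 16.2 CPM), which overlapped oligodendrocytes at 11.7 ± 1.31 CPM (10.6 to 13.4 CPM). A count was found in 7.61% of inhibitory nuclei and in 4.27% of oligodendrocyte nuclei, and after thinning in 3.27% and 2.44%, so the class as a whole was not set apart from that background. Inhibitory sub-cluster 5 had 34.5 and 33.3 CPM in the Ucn3-Cre libraries and 14.4 and 23.3 CPM in the vGluT2-Cre libraries, all above the highest oligodendrocyte library. Sub-cluster 1 (40.8 ± 41.7 CPM, from 0 to 96.2 CPM) and sub-cluster 4 (10.9 ± 15.8 CPM) were shallower and overlapped oligodendrocytes. After thinning, a count was found in 9.38% of 64 nuclei of sub-cluster 1, 6.67% of 60 of sub-cluster 4 and 6.08% of 263 of sub-cluster 5, so that sub-cluster 5 was not the highest at equal depth. Glutamatergic neurons were lower still at 2.88 ± 1.13 CPM. Astrocyte markers summed to 58.1 to 108 CPM in inhibitory neurons and 21.2 to 47.8 CPM in glutamatergic neurons, against 5179 to 5765 CPM in astrocytes; their part in the neuronal Ntsr2 values was not tested. Across the astrocyte clusters Ntsr2 was broad, with 872.7 ± 102 CPM in cluster 5, 647.8 ± 60.6 CPM in cluster 4, 465.0 ± 97.7 CPM in cluster 8 and 367.9 ± 142 CPM in cluster 18, and clusters 5 and 8 differed by 1.61 to 2.21 times within a library.

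Nmur2 (ENSMUSG00000037393, 16024 bases on the minus strand of chromosome 11, 56024987 to 56041010) was sparse and uneven in the same cells. Astrocytes had 63.6 and 55.4 CPM in the Ucn3-Cre libraries and 39.9 and 35.6 CPM in the vGluT2-Cre libraries (48.6 ± 13.1 CPM), with a count in 9.99% of nuclei. Cluster 4 had 71.5 ± 19.4 CPM (16.2% of 2686 nuclei), cluster 5 had 33.9 ± 9.95 CPM (7.31% of 698 nuclei) and cluster 8 had 4.54 ± 2.99 CPM (0.983% of 1526 nuclei). These 3 clusters did not overlap, and cluster 4 was 9.12 to 25.0 times above cluster 8 within a library, at medians of 2759 and 2156 counts. Of 502 Nmur2 nuclei among astrocytes, 431 also had Ntsr2, against 378 expected over all astrocytes of a library, with a log2 odds ratio of 1.08 ± 0.57 that was above 0 in all 4 libraries. Ntsr2 was also found in fewer nuclei of cluster 8 (59.2%) than of cluster 4 (82.1%). The pair was not compared within astrocyte clusters or at like depth, so the part of the clusters in this excess was not tested.

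Nmur2 had a second, lower site in glutamatergic neurons, at 9.65 and 7.19 CPM in the Ucn3-Cre libraries and 10.7 and 6.28 CPM in the vGluT2-Cre libraries (8.46 ± 2.07 CPM). A count was found in 42 of 547 nuclei (7.68%, 95% exact interval 5.59 to 10.2%), and in 38 of the 480 vglut2 nuclei of the submitters. Inhibitory neurons had 0.623 ± 0.494 CPM from 5 of 1340 nuclei and oligodendrocytes 0.335 ± 0.205 CPM, with ranges that overlapped, and neither reached the lowest glutamatergic library. Sub-cluster 0 had a count in all libraries, at 14.4 ± 3.12 CPM (11.1 to 18.2 CPM), as had sub-cluster 4 at 12.7 ± 7.14 CPM, which also carried oligodendrocyte genes.

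In the fitted comparison of inhibitory with glutamatergic neurons, 34.5% of 11085 genes passed an adjusted p of 0.05 by edgeR's quasi-likelihood test, 16.7% higher and 17.8% lower in inhibitory neurons, so a call here is common. The receptor genes were chosen on this contrast and get no test. Their log2 fold changes, inhibitory over glutamatergic, were 4.72 (SE 0.24) for Ramp3, 4.04 (SE 0.22) for Oprk1, 1.67 (SE 0.11) for Chrm2, 0.46 (SE 0.12) for Hcrtr2, 1.80 (SE 0.34) for Ntsr2 and -3.51 (SE 0.47) for Nmur2, beside a median of 0.01 over all genes. All 6 passed the filter on low counts over both classes together. Within glutamatergic neurons alone Ramp3, Oprk1 and Ntsr2 did not pass it, nor did Nmur2 within inhibitory neurons. The lower side of their fold changes thus rests on few counts, with Ramp3 in 12 of 547 glutamatergic nuclei and Nmur2 in 5 of 1340 inhibitory nuclei. The small value of Hcrtr2 joined a high cluster 19 with clusters 11 and 12 near 0, and that of Ntsr2 compared levels near the oligodendrocyte background with lower ones.

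The partners, ligands and effectors of these receptors were taken from lists of 51 genes, of which 33 were in the tables and 22 were tested in this contrast. Of the 22, 3 were higher, 5 lower and 14 passed in neither direction; the 8 called are 36.4%, close to the share of all genes, and their p-values are too small because classes were drawn from the same counts. The median log2 fold change was 0.11, against 0.01 over all genes. The muscarinic receptor Chrm3, which couples to Gq, was lower (log2 fold change -1.04, SE 0.07, adjusted p = 7.26e-15), and so was the esterase Ache (-0.24, SE 0.09, adjusted p = 0.0398). By cluster, Chrm3 had 465.3 ± 65.4 CPM in cluster 11, 10.6 ± 6.95 CPM in cluster 19 and 2.53 ± 2.94 CPM in cluster 12. Glutamatergic neurons had 493.9 ± 29.5 CPM, so that the class value joined a cluster at the glutamatergic level with others far below it. Chrm2 had its higher inhibitory level in cluster 19, where Chrm3 was low, but cluster 12 was low in both (14.1 ± 14.0 CPM of Chrm2).

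The opioid receptors Oprk1 and Oprd1 were divided between clusters 11 and 19, whereas the mu receptor Oprm1 and the nociceptin receptor Oprl1 were found in both. Oprl1 had 28.5 ± 5.32 CPM in cluster 11 and 19.6 ± 2.02 CPM in cluster 19, with overlapping libraries. Oprm1 had 10.5 ± 2.07 CPM in cluster 11, 3.30 ± 2.28 CPM in cluster 19 and 14.4 ± 17.8 CPM in cluster 12. The delta receptor Oprd1 had 64.1 and 82.0 CPM in cluster 19 of the Ucn3-Cre libraries and 41.1 and 85.7 CPM in that of the vGluT2-Cre libraries (68.2 ± 20.4 CPM), 1.95 ± 0.795 CPM in cluster 11, where Oprk1 was found, and 31.4 ± 10.6 CPM in glutamatergic neurons. It did not pass between the classes (-0.28, SE 0.17, adjusted p = 0.21). The mu receptor Oprm1 was lower in inhibitory neurons (-1.05, SE 0.25, adjusted p = 0.00102), with 7.93 ± 1.90 CPM there and 14.8 ± 4.18 CPM in glutamatergic neurons. The enkephalin gene Penk (0.64, SE 0.27, adjusted p = 0.0656) and the nociceptin receptor Oprl1 (0.16, SE 0.19, adjusted p = 0.566) did not pass. The nociceptin precursor Pnoc had 50.3 and 59.5 CPM in cluster 19 of the vGluT2-Cre libraries and was listed at 0 throughout both Ucn3-Cre libraries. Its fitted log2 fold change between lines in inhibitory neurons (-8.19, SE 1.12) rests on those listed zeros and was not read as a difference.

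The neurotensin gene Nts was higher in inhibitory than in glutamatergic neurons (37.7 ± 17.8 CPM, against 8.75 ± 3.57 CPM, edgeR adjusted p = 1.98e-10), with 57.2 and 166.6 CPM in cluster 19 of the Ucn3-Cre libraries and 61.8 and 105.4 CPM in that of the vGluT2-Cre libraries (97.7 ± 50.8 CPM, 37.4% of nuclei). It had 2.56 ± 1.92 CPM in cluster 11 and 1.22 ± 1.23 CPM in astrocytes, the class of Ntsr2. The sorting receptor Sort1, which also binds neurotensin, did not pass (-0.02, SE 0.10, adjusted p = 0.884). The partner of Ramp3, Calcrl, had 1.49 ± 1.88 CPM in cluster 11 from 4 of 664 nuclei (0.602%), against 0.51% of oligodendrocyte nuclei, so it was not detectable above background where Ramp3 was highest; Calcr was not analysed here. Ramp1, the partner for calcitonin gene-related peptide, had 152.8 ± 12.4 CPM in astrocytes and 4.97 ± 3.07 CPM in cluster 11. The orexin gene Hcrt was listed at 0 in 3 libraries, with 11 inhibitory, 10 glutamatergic and 7 astrocyte nuclei in vGluT2-Cre replicate 1 (4.25, 4.77 and 2.78 CPM in these classes).

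Among 13 tested G proteins and effectors, 2 were higher, 2 lower and 9 passed in neither direction. The phospholipases Plcb1 (2.20, SE 0.08, adjusted p = 1.29e-23) and Plcb4 (1.95, SE 0.08, adjusted p = 7.65e-23), which act downstream of Gq, were higher in inhibitory neurons. Plcb4 had 1685 ± 106 CPM in cluster 11, 342.9 ± 36.8 CPM in cluster 19 and 264.6 ± 29.6 CPM in glutamatergic neurons, whereas Plcb1 had 379.7 ± 48.4 CPM in cluster 11, 1365 ± 158 CPM in cluster 19 and 173.0 ± 51.8 CPM in glutamatergic neurons. The G protein-gated potassium channel subunits Kcnj3 (-1.33, SE 0.08, adjusted p = 1.02e-16) and Kcnj6 (-1.59, SE 0.19, adjusted p = 9.99e-09) were lower. Kcnj3 had 52.8 ± 15.9 CPM in cluster 11, the Oprk1 cluster, 289.6 ± 51.4 CPM in cluster 19 and 341.2 ± 31.7 CPM in glutamatergic neurons, and Kcnj6 had 21.5 ± 4.97 CPM, 8.61 ± 1.63 CPM and 49.8 ± 17.98 CPM in the same order.

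Genes with the pattern most like each receptor were taken by Pearson correlation of log2 (CPM + 10) over 44 sums, of 11 groups in 4 libraries, among 12186 genes. The groups, each with at least 20 nuclei in every library, were the named classes except fibroblasts, with inhibitory neurons entered as sub-clusters 0, 3, 5 and 7. Sub-cluster 6, the inhibitory sub-cluster highest in Hcrtr2 and Chrm2, was too small to be used. Nearest to Hcrtr2 were Hs3st4 (r = 0.966), Hs3st2 (r = 0.956) and Oprd1 (r = 0.944), the first 2 of which encode heparan sulfate sulfotransferases. Nearest to Ramp3 was Oprk1 itself (r = 0.943), then the homeobox gene Dmbx1 (r = 0.939) and Zfhx4 (r = 0.934). Nearest to Oprk1 were 2700069I18Rik (r = 0.982), Cntnap3 (r = 0.978) and Dmbx1 (r = 0.972). For Chrm2 they were Klhl1 (r = 0.960), Mtus2 (r = 0.957) and Trank1 (r = 0.953). For Ntsr2 they were the angiotensinogen gene Agt (r = 0.929), the amino acid transporter Slc7a10 (r = 0.927) and Tagln3 (r = 0.917), and for Nmur2 Gm12239 (r = 0.970), Gm30524 (r = 0.943) and the glutamate receptor Gria1 (r = 0.937). The sums share libraries and cell classes and are not independent.

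Between the lines, within a class, none of the receptor genes that passed the filter on low counts was called by edgeR's quasi-likelihood test with Benjamini-Hochberg adjustment, 2 Ucn3-Cre libraries against 2 vGluT2-Cre libraries. The same was true of every other gene: 0.0% of 11324 genes in inhibitory neurons, of 11094 in glutamatergic neurons and of 11981 in astrocytes were called, while 340, 306 and 360 genes had an unadjusted p under 0.05 and DESeq2 called 14, 4 and 78. In inhibitory neurons 5 of the 6 passed the filter, and the log2 fold changes, Ucn3-Cre over vGluT2-Cre, were -0.33 (SE 0.20) for Hcrtr2, -0.10 (SE 0.30) for Ramp3, -0.20 (SE 0.23) for Oprk1, -0.19 (SE 0.14) for Chrm2 and 0.71 (SE 0.60) for Ntsr2, with an adjusted p of 1.0 each. Hcrtr2 had 51.4 and 66.5 CPM in the Ucn3-Cre libraries and 82.8 and 67.4 CPM in the vGluT2-Cre libraries, which do not overlap but nearly touch. Ntsr2 had 15.0 and 16.2 CPM in the Ucn3-Cre libraries and 6.997 and 11.99 CPM in the vGluT2-Cre libraries, and the astrocyte markers in the same nuclei summed to 107.5 and 88.3 CPM in the Ucn3-Cre libraries and 58.1 and 69.7 CPM in the vGluT2-Cre libraries; their part in the Ntsr2 difference was not tested. Line and age differ together here and cannot be told apart, and since the labels do not say that libraries came from separate animals, the p-values measure only the spread between these libraries.

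In glutamatergic neurons 3 of the 6 passed the filter, and Hcrtr2 (-0.42, SE 0.21) and Nmur2 (0.04, SE 0.78) had an edgeR adjusted p of 1.0, as had Ntsr2 in astrocytes (-0.12, SE 0.13), where 2 passed.

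The 2 largest line differences relative to their error were Nmur2 in astrocytes and Chrm2 in glutamatergic neurons. Nmur2 was higher in both Ucn3-Cre libraries (63.6 and 55.4 CPM, against 39.9 and 35.6 CPM in the vGluT2-Cre libraries), with a log2 fold change of 0.69 (SE 0.15, edgeR adjusted p = 0.661). Without Ucn3-Cre replicate 1, the iodixanol library, it was 0.56 (SE 0.14). The same order was seen in cluster 4 (95.2 and 79.4 CPM, against 58.4 and 53.2 CPM), and in cluster 5 the lines overlapped (19.38 and 37.99 CPM, against 41.8 and 36.6 CPM). Chrm2 in glutamatergic neurons was lower in both Ucn3-Cre libraries (56.1 and 40.4 CPM, against 122.2 and 79.6 CPM in the vGluT2-Cre libraries), with a log2 fold change of -1.04 (SE 0.29, edgeR adjusted p = 1.0), and -1.28 (SE 0.37) among the sucrose libraries. Sub-cluster 6, with 50.6% of these counts, made up 6.93% and 5.0% of glutamatergic nuclei in the Ucn3-Cre libraries, against 12.5% and 7.45% in the vGluT2-Cre libraries. Within sub-cluster 6 the lines overlapped (750.2 and 642.9 CPM in Ucn3-Cre, against 596.5 and 685.2 CPM). They also overlapped in sub-cluster 1 (83.1 and 241.4 CPM, against 442.6 and 122.7 CPM). In sub-cluster 0 both Ucn3-Cre libraries were lower (32.4 and 38.4 CPM, against 115.2 and 202.2 CPM). The part of sub-cluster 6 in the class difference was not tested. In the submitters' vglut2 nuclei the order was that of all glutamatergic neurons, with 25.4 and 19.7 CPM in the Ucn3-Cre libraries and 66.7 and 48.6 CPM in the vGluT2-Cre libraries (log2 fold change -1.34, SE 0.27, edgeR adjusted p = 1.0).

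**Figure D5:**
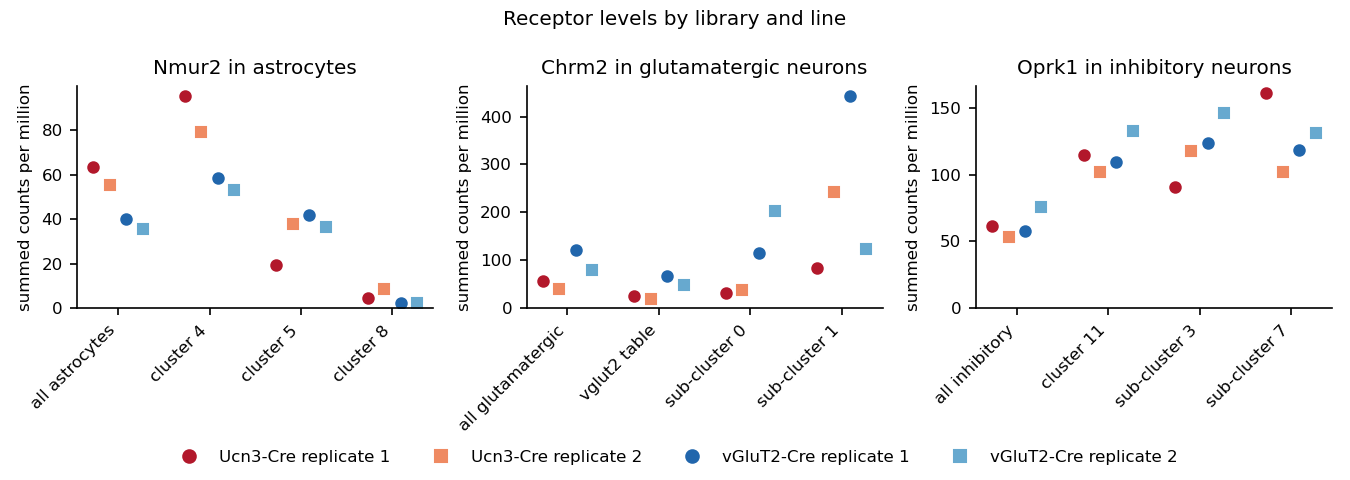
Summed CPM (linear axes from 0) are plotted by library for Nmur2 in astrocytes and 3 of their clusters, for Chrm2 in glutamatergic neurons, the vglut2 table and 2 sub-clusters, and for Oprk1 in inhibitory neurons, cluster 11 and 2 sub-clusters. Both Ucn3-Cre libraries lie above both vGluT2-Cre libraries for Nmur2 in astrocytes and below them for Chrm2 in glutamatergic neurons; for Oprk1 the lines overlap.

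Between the sexes, 2 female libraries against 2 male ones, 1 gene was called in each class, the X-linked Xist, which is 0.00883% of genes in inhibitory neurons, 0.00901% in glutamatergic neurons and 0.00835% in astrocytes. No receptor gene was called. At an unadjusted p under 0.05 there were 232, 190 and 343 genes, and DESeq2 called 17, 10 and 57. Oprk1 in inhibitory neurons had 61.8 and 75.5 CPM in the female libraries and 53.7 and 57.6 CPM in the male libraries, a log2 fold change of 0.38 (SE 0.18, edgeR adjusted p = 1.0). Ramp3 (0.21, SE 0.28), Chrm2 (-0.03, SE 0.17), Hcrtr2 (-0.26, SE 0.22) and Ntsr2 (0.27, SE 0.67) in inhibitory neurons, and Nmur2 (0.10, SE 0.37) in astrocytes, had overlapping libraries. In glutamatergic neurons the fold changes were 0.20 (SE 0.26) for Hcrtr2, -0.19 (SE 0.50) for Chrm2 and -0.11 (SE 0.86) for Nmur2. Ntsr2 in astrocytes had 577.0 and 592.2 CPM in the female libraries and 607.0 and 721.2 CPM in the male libraries, which did not overlap (-0.11, SE 0.13). The edgeR adjusted p was 1.0 for each, and a p that misses the threshold does not show that levels were equal. Of the pathway genes, none of the 21 to 23 tested in each class was called between lines or sexes.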

How the data were processed

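Nuclei of 4 libraries were profiled with 10x Genomics chemistry, per the labels' protocols; Cell Ranger 3.1.0, Seurat 3.2 and mm10 are named in the submitters' processing notes. The deposited tables hold expected counts per gene and nucleus: 97.2 to 98.8% of values above 0 lie within 0.5 below a whole number, and the step that made them so is not given in the sources used here. Library totals were 9096357 to 19125488 counts. Nuclei were clustered with scanpy 1.11.5 (2000 variable genes without the receptor and pathway genes, 30 components, 15 neighbours, Leiden resolution 1.0; sub-clusters 1000 genes, 15 components, resolution 0.5) and named from marker lists. Scrublet's automatic threshold marked 37 nuclei (0.172%), so the 947 highest scores were removed in proportion to nuclei per library. Levels are summed counts per 1000000 counts (CPM), and intervals are exact binomial at 95% over the pooled nuclei of all libraries. Floors (3 counts) and intervals cover counting error only, not the spread between libraries. Sums per library and class, rounded to whole numbers, were compared with edgeR 4.0.16 (quasi-likelihood test, Benjamini-Hochberg adjustment, threshold 0.05) in R 4.3.3, checked on simulated data; DESeq2 1.42.0, other normalization, no filter, a replicate block, doublets kept, other resolutions and leaving out each library were alternatives. The inhibitory against glutamatergic fit held the library as a block, since both classes come from the same library. Clusters and tests use the same nuclei, so p-values between classes are too small. Shares were also taken after thinning to 2000 counts per nucleus, leaving out shallower nuclei. The 6 genes, the pathway lists and the naming rules (every pathway gene that passed, the 3 most alike genes, leading genes of sub-clusters) were chosen with earlier results of these data known. Promoter sequences are from RefSeq (GRCm38.p6), with 5 of 6 genes matched, and gene positions from GENCODE (GRCm38, the same assembly as mm10).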

Additional observations from a re-analysis of the deposited data

How the results depend on the processing

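No receptor gene was called between lines or sexes under any alternative run. By DESeq2 the genes called were 14 (line) and 17 (sex) in inhibitory neurons, 4 and 10 in glutamatergic neurons, and 78 and 57 in astrocytes (12 of the 14 and 68 of the 78 line calls were genes listed at 0 throughout a library); between the neuron classes it called 1989, and edgeR without the library as a block 1808, against 3821. Without a filter, 6 genes were called between sexes in inhibitory and 5 in glutamatergic neurons; cluster 11 only gave 5 and cluster 19 only 6, both chosen after seeing the data. Replicate numbers are not said to pair libraries, deviations of same-numbered libraries correlated at 0.0894 in inhibitory neurons, 0.135 in glutamatergic neurons and 0.0382 in astrocytes, and the replicate block gave 3 genes between sexes in glutamatergic neurons and 0 in astrocytes. Leaving out each library gave 0 to 16 genes between lines in inhibitory neurons (16 without vGluT2-Cre replicate 2), 0 to 44 in glutamatergic neurons (44 without that library) and 0 in astrocytes, 0 to 2, 0 to 4 and 0 to 1 between sexes, and 3018 to 3683 between the neuron classes. A fold change also changed sign, none of them called, for Chrm2 between lines in cluster 11 only (0.10), and between sexes without sub-clusters 2, 8 and 9 (0.01), and for Ntsr2 between sexes in cluster 19 only (-0.09). Leaving out each library in turn changed the sign of 19 further values, and the ranges held 0. Between lines they were -0.41 to 0.27 (Ramp3) and -0.41 to 0.02 (Oprk1) in inhibitory neurons, -0.25 to 0.40 (Nmur2) in glutamatergic neurons and -0.22 to 0.00075 (Ntsr2) in astrocytes. Between sexes they were -0.21 to 0.46 (Ramp3), -0.16 to 0.13 (Chrm2) and -0.23 to 0.97 (Ntsr2) in inhibitory neurons, -0.01 to 0.47 (Hcrtr2), -0.74 to 0.78 (Chrm2) and -0.44 to 0.18 (Nmur2) in glutamatergic neurons, and -0.22 to 0.01 (Ntsr2) and -0.37 to 0.50 (Nmur2) in astrocytes; the causes were not tested. Of 77 alternatives for the inhibitory over glutamatergic log2 fold changes, 11 moved beyond 1 SE and 0 changed sign. The submitters' vglut2 nuclei gave 0.92 (Hcrtr2, against 0.46), 5.34 (Ramp3, against 4.72), 4.32 (Oprk1, against 4.04) and 2.53 (Chrm2, against 1.67), doublets kept 1.4 (Ntsr2, against 1.8) and -2.73 (Nmur2, against -3.51), and leaving out a library 4.32 to 5.09 (Ramp3), 3.89 to 4.26 (Oprk1) and 1.48 to 1.95 (Chrm2). Of 48 for co-detection 9 moved, 8 of them the 4 pairs after thinning and with sub-clusters held apart; detection at 1 count or more gave -0.8 for Oprk1 and Chrm2, against -0.28. The highest Oprk1 level was 199.7 CPM with finer sub-clusters, against 128.4 CPM. Genes highest in an inhibitory group numbered 4 with each library left out, and pairs of the 4 seen together more often than expected 2 to 3, against 2. With 2 libraries a group and 26.8% of genes listed at 0 in at least 1 library, small differences were not detectable.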
